A study of Rattus norvegicus with 2 samples.

Results

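Cytokines, chemokines, the tumour necrosis factor (TNF) family, the Toll-like receptors and the NF-kappaB factors below them were followed in the hypothalamic paraventricular nucleus (PVN) of adult rats exposed to a glucocorticoid before birth. Members were chosen by name alone: every non-control probe whose gene name begins with Ccl, Cxcl, Cxcr, Tnf, Tlr or Nfkb, or with Il or Ccr and a digit, or is Rela or Relb. They numbered 182 of 17712 genes and were read by 202 of 30367 probes, none of them named Relb. The control array held RNA from the PVN of 12-week-old male Sprague Dawley offspring of vehicle-treated mothers. The dexamethasone array held RNA from offspring of the same age, sex and strain whose mothers had received 200 µg/kg dexamethasone in the third trimester. Each group had a single array, and the sources used here do not say whether it held 1 animal or a pool. Every difference below is therefore between 2 arrays, with no replicate check, no test and no p-value.

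Chemokines are small secreted proteins that bind G-protein-coupled receptors and direct the migration of cells. Interleukins and TNF ligands bind receptor chains at the cell surface, and Toll-like receptors bind microbial or damage-derived molecules. The interleukin-1, TNF and Toll-like receptors converge on kinases that remove the inhibitors of NF-kappaB, whereupon its subunits enter the nucleus and raise transcription of cytokine and inhibitor genes. In the brain, microglia, astrocytes and endothelium carry most of this system, some chemokines are made by neurons, and glucocorticoids are known to restrain NF-kappaB.

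Signals are the deposited spot intensities after background subtraction by the scanner software. Differences are dexamethasone minus control in log2 units, after subtracting each array's 75th percentile (signals of 1404 and 1480), so 1 is a doubling. Where a pair of signals is given without labels, the control array comes before the dexamethasone array. A probe counted as well above background where at least 50% of its unmarked spots did, and a gene took its brightest probe well above background on both arrays. The lowest signal well above background was 5.86 on the control array and 7.2 on the other. A difference of at least 2-fold is a size rule. Most members have a single spot. Among all probes spotted 10 times, the SD of the between-array difference over spot pairs had a median of 0.269 at signals below 32, 0.119 from 32 to 128, 0.051 from 128 to 1024 and 0.033 above. These SDs are technical and say nothing of the spread between animals.

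The arrays stood apart in genes of neighbouring regions and of blood. Cortical and striatal markers summed to 4858 in the control and 26005 in the dexamethasone RNA, with 8 of the 12 measured past 2-fold upwards. Thalamic markers summed to 118151 and 66581, and red-cell markers to 122287 and 346045. Of the nucleus's own markers, Avp read 3464 and 970, Oxt 1455 and 587, Crh 230 and 636, and Sst 7602 and 21300. Trh (-0.24), Sim1 (-0.31) and Pou3f2 (0.24) were within 2-fold. Otp, at 1.92 and 8.26, was detected after dexamethasone alone. The 7 measured had 3 above 0, 4 below and a median of -0.24, and the list summed to 13678 and 24429. Markers of microglia and macrophages differed little: 15 of 15 were measured, their differences ran from -0.14 to 0.24, and they summed to 68117 and 75968. Astrocyte markers were above 0 in 6 of 7, with a median of 0.25, and summed to 131172 and 166242. Endothelial markers were above 0 in 3 of 8, with a median of -0.03. None of the 4 B-cell markers was measured on both arrays. The part of these shifts in the results below was not tested, and in bulk RNA fewer cells of a type and less RNA per cell cannot be told apart.

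Most of the family was present at low signal. Of the member probes 135 (66.8%) passed the background criterion on the control array and 132 (65.3%) on the other, against 79.5% and 78.2% of all probes. Of the 182 genes, 114 (62.6%) were measured on both arrays, 7 in the control array alone, 7 in the dexamethasone array alone and 54 on neither. The NF-kappaB class was the most completely measured, with 9 of 9 genes. Chemokine receptors were measured least often, with 7 of 18. The median signal of the 114 was 81.9 and 88.7, against 575 and 613 over the 14257 genes measured on both arrays, so 24.6% of measured members but 11.7% of measured genes lay below a signal of 32.

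The median of the family lay near that of all genes. It was 0.0066, beside 0.0085 over all genes, with 58 members above 0 and 56 below. Il16, Ccl19 and Cxcl13 (3 of 114) were 2-fold or more above control after dexamethasone, where the share over all genes was 3.35%. Il22ra2, Ccr9, Tnfrsf4, Tlr3, Tnfrsf17, Il22 and Il3ra (7 of 114) were 2-fold or more below it, where the share over all genes was 2.4%. Either way 10 of 114 passed, beside 5.75% of all genes. Of the called genes 58.3% over the whole array were higher and 30% of the members were. That split became 68.2% and 40% with normexp background correction, 67.4% and 40% without background correction, and 72% and 50% among genes of at least the median level. The member shares rest on few calls: 2 higher and 3 lower under either background alternative, and 1 and 1 among the brighter genes. Shares of so few genes cannot show a direction for the family. At a 1.5-fold rule 11 members were higher and 15 lower, beside 7.27% and 7.58% of all genes.

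**Figure D1:**
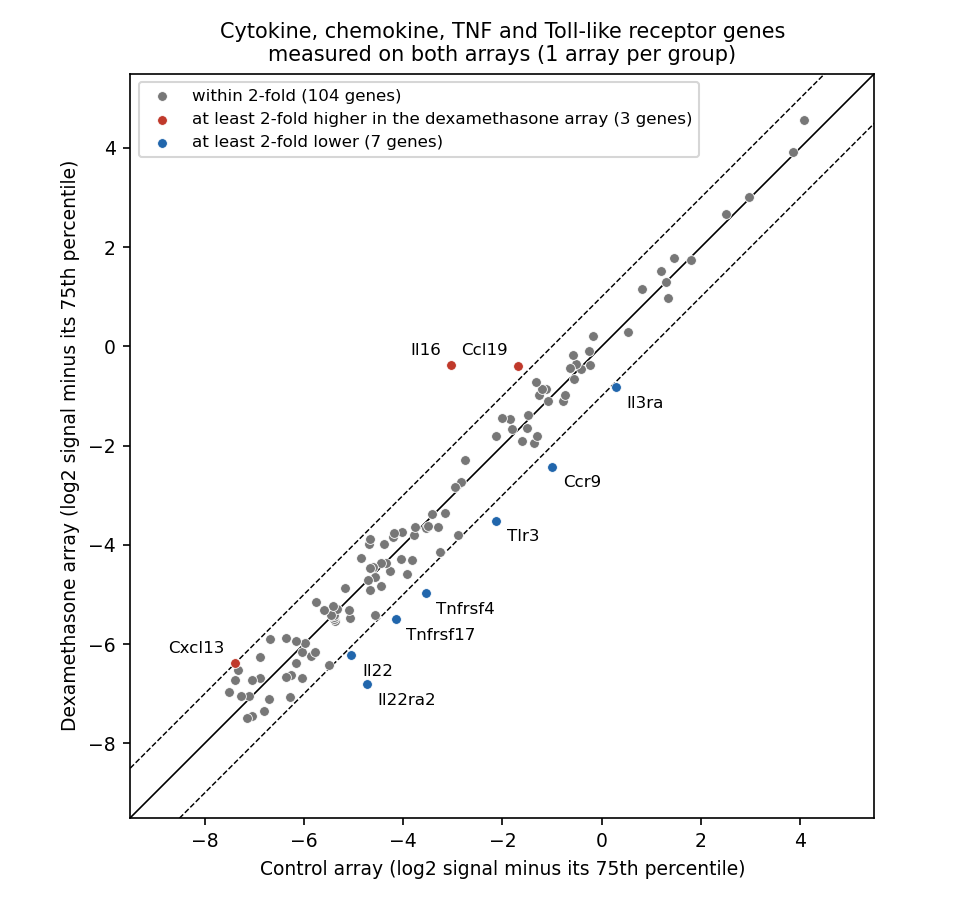
Each point is 1 of the 114 member genes measured on both arrays, with its log2 signal minus the array's 75th percentile in the control array (x) and the dexamethasone array (y). The solid line marks equal values and the dashed lines a 2-fold difference. Il16, Ccl19 and Cxcl13 lie above the upper dashed line and 7 genes lie below the lower, while 104 lie within 2-fold.

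The calls lay at all levels of signal. Below a signal of 32, 3 of 28 members were past 2-fold, beside 9.09% of all genes, and from 32 to 128 2 of 39 (5.13%), beside 9.72%. From 128 to 1024 the counts were 4 of 29 (13.8%), beside 6%, and above 1024 1 of 18 (5.56%), beside 3.02%. With normexp background correction, which holds back differences of dim spots, Il16, Ccl19, Ccr9, Tlr3 and Il3ra stayed past 2-fold and the other 5 did not.

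CC chemokines attract monocytes, lymphocytes and eosinophils. Of 20 genes 13 were measured on both arrays, 5 above 0 and 8 below, with a median of -0.04. Ccl19, a ligand of Ccr7 that guides T cells and dendritic cells, had a signal of 438 without and 1131 with prenatal dexamethasone (chr5:59221790-59221849, rn4). It was 2.45-fold higher, a difference of 1.29 that kept between 1.22 and 1.31 under every alternative. Its neighbour Ccl21, the other Ccr7 ligand, read 3.57 and 9 and was detected after dexamethasone alone. The remaining CC chemokines were all within 2-fold. Ccl5, an attractant of T cells and monocytes, read 571 and 422 (-0.51), and Ccl4, a macrophage inflammatory protein, 18.1 and 11.1 (-0.78, but -0.10 with normexp). Ccl24, an eosinophil attractant acting through Ccr3, read 20283 and 22329 (0.06, and -0.01 under cyclic loess).

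Repeated spots gave a technical error for 3 CC chemokines. Ccl2, the main monocyte attractant, read 33.1 ± 2.16 (SD, n = 9 spots) in the control array and 39.6 ± 3.55 (SD, n = 9 spots) after dexamethasone. All 9 spot pairs were higher in the latter, yet the difference of 0.18 shrank to 0.01 with normexp. Ccl3 read 33.6 ± 1.92 (SD, n = 10 spots) and 33.8 ± 3.18 (SD, n = 9 spots), and its difference of -0.07 was smaller than its spot SD of 0.188. Ccl27, better known as a skin chemokine acting on Ccr10, read 4877 ± 170 and 4982 ± 170 (SD, n = 8 spots each), a difference of -0.045 after scaling with an SD of 0.03 over spot pairs.

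CXC chemokines attract neutrophils, or lymphocytes through Cxcr3, Cxcr4 and Cxcr5. Of 12 genes 8 were measured, 6 above 0 and 2 below, and their median of 0.55 was the furthest from 0 among the 10 role classes in the main setting (0.24 with normexp and 0.16 without background correction). Cxcl14, which is made by neurons as well as by epithelium, read 23659 and 35069 (0.49). Cxcl16, a membrane-bound ligand of Cxcr6, read 561 and 901 (0.61), and both kept their sign and more than 0.41 under every alternative. The others above 0 were dimmer. Cxcl17 read 54.8 and 93.3 (0.69), Cxcl9 11.9 and 19.3 (0.62) and Cxcl10 76.2 and 103 (0.36). With normexp these stood at 0.36, 0.06 and 0.23. Cxcl9 and Cxcl10 are interferon-induced ligands of Cxcr3, a receptor whose own probe read 7.39 and 4.51 and was well above background in the control array alone.

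Cxcl13, the B-cell attractant, was past 2-fold at signals of 8.35 and 17.8, near the lowest well above background. Its difference of 1.01 fell to 0.25 with normexp and 0.14 without background correction. Its probe is shown because the call rests on this single spot per array. It lies on the minus strand at chr14:15127379-15127438 (rn4), in lower case throughout because no part was singled out.
Cxcl13 probe: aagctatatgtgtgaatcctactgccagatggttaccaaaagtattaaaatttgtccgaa

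**Figure D2:**
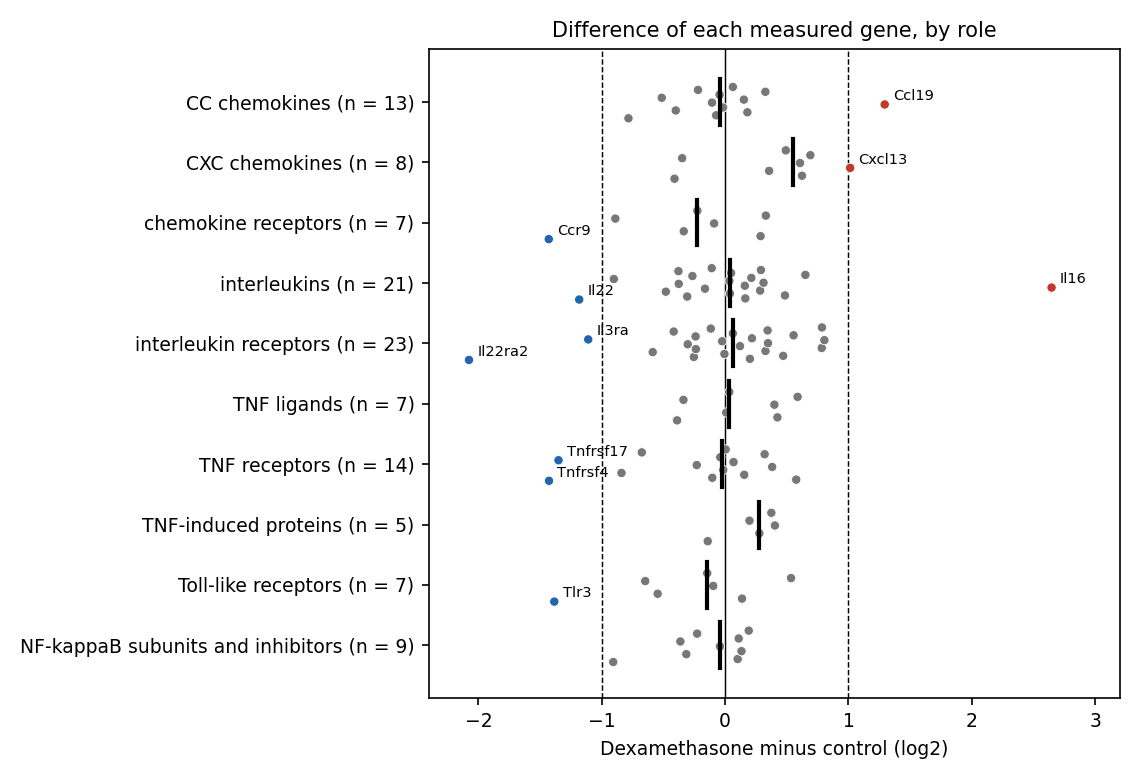
Points are the 114 measured member genes by role class, with n the number measured, placed on x by their difference in log2 (dexamethasone minus control). Black bars are class medians, running from -0.23 for chemokine receptors to 0.55 for CXC chemokines. Dashed lines mark 2-fold, and the 10 genes past it are named.

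Cxcl12, the ligand of Cxcr4 and Cxcr7, gave opposite readings from its probes. The probe at position 5204 of its transcript read 3529 and 2922 (-0.35), and the probe at position 1783 read 744 and 1986 (1.34, and 1.24 with normexp). The gene thus read lower on its brighter probe and 2.53-fold higher on the dimmer, and no direction is claimed for it. In the class and family counts it enters by its brighter probe, below 0, while the mean of its probes was 0.50. Cxcr4 itself read 86.4 and 111 (0.29) and Cxcr7 (now Ackr3) 321 and 426 (0.33).

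**Figure D3:**
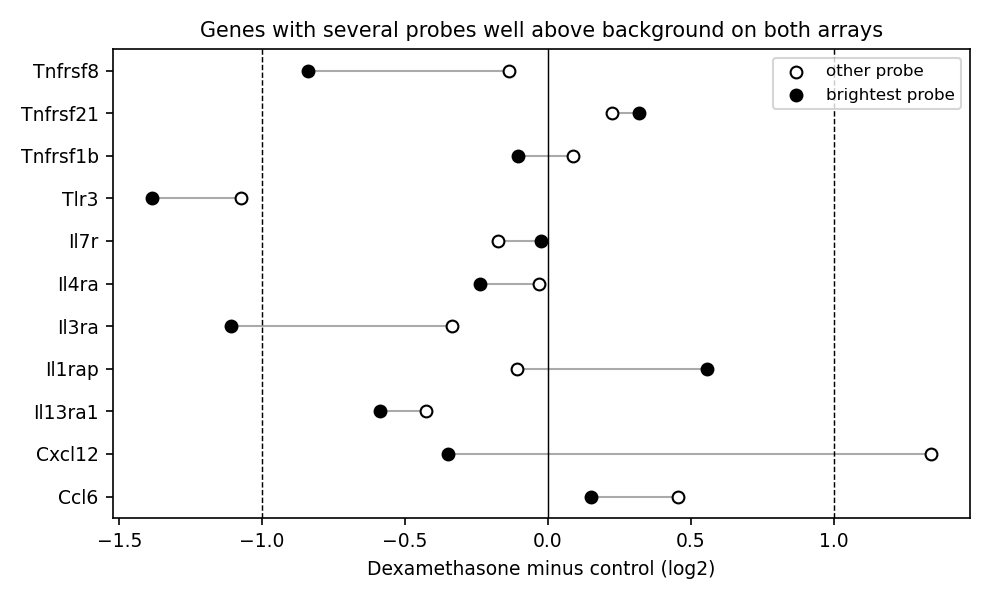
The 11 member genes with several probes well above background on both arrays are shown, with x the difference of each probe in log2 (dexamethasone minus control). Filled points are the brightest probe and open points the others. Cxcl12 spans from -0.35 to 1.34, and Il1rap and Tnfrsf1b also have probes on both sides of 0.

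Of the 18 chemokine receptors 8 were detected on neither array and 3 on a single array. Of the 7 measured on both, 5 were below 0 and 2 above, with a median of -0.23. Ccr9, the receptor for Ccl25 on gut-homing lymphocytes, read 708 and 277 (chr8:128541908-128541967, rn4). It was 2.69-fold lower, with a difference of -1.43 that lay between -1.43 and -1.26 under every alternative. Ccr10 read 148 and 84 (-0.89) and Ccr6 9.91 and 8.28 (-0.34). Ccr2, the receptor for Ccl2, was well above background on neither array.

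Cxcr1, Ccr7 and Tnfrsf14 passed 2-fold as bounds, each in the dexamethasone array alone. A bound sets the detected signal against what the other array could still have detected: its lowest signal well above background, or the probe's own signal if that was higher. Cxcr1, a neutrophil receptor for Cxcl8-type chemokines, read 1.32 and 55.9, at least 9.04-fold higher. Ccr7 read 6.48 and 21.4, 3.13-fold higher against its own control signal, which lay above the lowest detected on that array. That value is thus the plain ratio of its signals. Tnfrsf14 read 4.37 and 13.2, at least 2.13-fold higher. Those were 3 of 7 members seen in that array alone, where 34.4% of all such genes passed, and 0 of 7 passed in the control array alone, where 13.2% did. Before background subtraction the Cxcr1 spots read 58.5 and 124, the Ccr7 spots 67.1 and 84 and the Tnfrsf14 spots 64.4 and 73.3. With normexp their differences were 1.08, 0.26 and 0.15. Beside Cxcr1, the neutrophil genes S100a8 and S100a9 read 10.5 and 23.2, and 39.7 and 57.4, while Mpo read 13.3 and 9.38 and Elane was on neither array. Beside Ccr7, the T-cell gene Cd3e read 1.39 and 57.1 whereas Cd3d read 192 and 201 and Cd8a was on neither. Of the 5 T- and NK-cell markers measured on both arrays, 1 was above 0 and 4 were below. Gzmb and Prf1 were detected in the control array alone. Their part was not tested. The probes are given because each of these receptors was read from 1 spot per array. That of Cxcr1 lies on the minus strand at chr9:73510547-73510606 and that of Ccr7 on the minus strand at chr10:87925806-87925865 (rn4).
Cxcr1 probe: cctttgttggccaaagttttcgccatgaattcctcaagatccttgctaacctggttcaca
Ccr7 probe: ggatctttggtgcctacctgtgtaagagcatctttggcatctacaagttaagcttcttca

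Interleukins divided evenly, with 12 of 21 measured members above 0, 9 below and a median of 0.04 (-0.02 with normexp). Il16, a ligand of CD4 with a neuronal isoform in the brain, stood furthest from the rest of the family. Its signals were 172 in the control array and 1137 after dexamethasone (chr1:139908269-139908328, rn4). It was 6.26-fold higher, and its difference of 2.65 stayed between 2.30 and 2.66 under every alternative. Cortical and striatal markers had a median difference of 2.31 (1.42 with normexp), and their part in the Il16 value was not tested. Il22, an epithelial barrier cytokine of the Il10 family, read 42.8 and 19.9 (-1.18, but -0.46 with normexp). Il18bp, which neutralises Il18, read 188 and 106 (-0.90), and Il18 read 818 and 697 (-0.31).

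The classical inflammatory interleukins were near background. Il1b read 34 ± 3.44 (SD, n = 10 spots) and 31.8 ± 1.4 (SD, n = 9 spots), with 1 of 9 spot pairs higher. Il1a read 29.1 ± 3.65 and 37.2 ± 3.76 (SD, n = 10 spots each), with 8 of 10 pairs higher and a difference of 0.28 that was 0.03 with normexp. Its other probe, at 1.42 and 2.69, was well above background on neither array. The Il1 genes thus differed by about their spot SDs of 0.139 and 0.234. Il6, although spotted 10 times, and Il10 were well above background on neither array. Il34 and Il33 were read at high signal: Il34, a neuronal ligand of the microglial receptor Csf1r, read 8000 and 9444 (0.16), and Il33, a nuclear alarmin of glia, 1180 and 1390 (0.16).

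**Figure D4:**
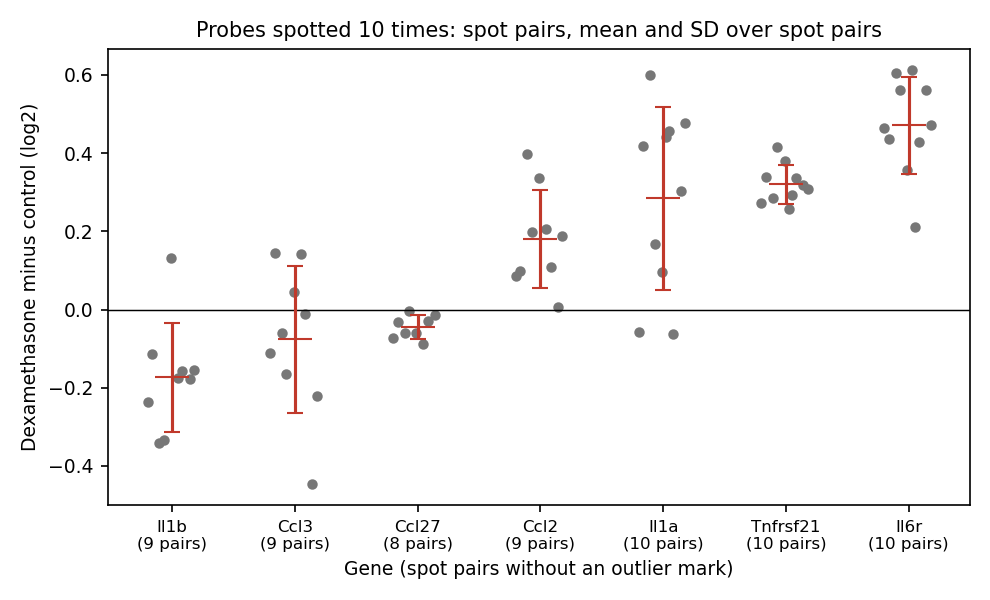
Grey points are spot pairs of the 7 member probes that are spotted 10 times and well above background on both arrays, with y the difference in log2 (dexamethasone minus control). Red bars show the mean and SD over pairs, an error within arrays only. All 10 pairs of Il6r and of Tnfrsf21 lie above 0, and all 8 of Ccl27 lie below it.

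Interleukin receptors had 12 of 23 measured members above 0, with a median of 0.06 (-0.05 with normexp) and no gene past 2-fold upwards. Il22ra2, a soluble decoy that binds Il22, read 53.1 and 13.3 (chr1:14890852-14890911, rn4), a 4.22-fold lower signal. Its difference of -2.08 was the largest fall among the 114, but it was -0.63 with normexp and -0.72 without background correction. Il22 and its decoy were therefore both past 2-fold downwards in the main setting and neither with normexp. The Il22 probe is on the plus strand at chr7:57521727-57521786 (rn4).
Il22 probe: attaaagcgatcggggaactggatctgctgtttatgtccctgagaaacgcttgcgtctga

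Il3ra, the ligand-binding chain of the Il3 receptor, rested on 1 of its probes. The probe at position 1020 of its transcript (minus strand, chr12:16828455-16828514, rn4) read 1719 and 839 (-1.11). The probe at position 459 (minus strand, chr12:16830735-16830794) read 154 and 129 (-0.33), and their mean was -0.72. The brighter probe was past 2-fold and the dimmer was not, so the call holds for that probe and not for the mean of the gene. Around it, Asmtl and Akap17a differed by -0.09 and -0.02, whereas Asmt read 198 and 98.3 (-1.09) and Dhrsx 152 and 34.1 (-2.23). Those neighbours were looked up after the Il3ra value was seen.
Il3ra probe at 1020: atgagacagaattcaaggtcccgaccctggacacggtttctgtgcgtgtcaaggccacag
Il3ra probe at 459: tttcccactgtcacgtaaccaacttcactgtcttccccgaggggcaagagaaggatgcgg

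The Il6 receptor chains read higher in the dexamethasone array on their brightest probes. Il6r read 209 ± 11.4 and 306 ± 17.5 (SD, n = 10 spots each), higher in 10 of 10 spot pairs by 0.47 with a spot SD of 0.124. Il6st, the shared gp130 chain, read 2474 and 3310 (0.34). A dimmer Il6st probe read 44.7 and 1.62 and was well above background in the control array alone, so the probes of Il6st disagree. Il1r1, the signalling Il1 receptor, read 12.9 and 7.3 and was detected in the control array alone. Il1r2, its decoy, read 8.75 and 16.1 (0.80, but 0.12 with normexp). Il1rap, the partner of Il1r1, read 350 and 542 (0.56) on its brightest probe and 11.7 and 11.4 (-0.11) on another. Il2rg, the common gamma chain, read 3216 and 4252 (0.33) on 1 probe. Its other probe, at 3.3 and 1.56, was well above background on neither array. Il17ra read 3466 and 3639 (-0.01, with a sign that depended on the scaling).

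TNF ligands had 5 of 7 measured members above 0, a median of 0.03 and none past 2-fold. Tnf itself read 143 and 119 (-0.34). Tnfsf12, known as TWEAK, read 11111 and 11985 (0.03, and -0.03 under cyclic loess), and Tnfsf13, a B-cell survival factor, 949 and 1319 (0.40). Tnfsf9 read 77.3 and 109 (0.42) and Tnfsf15 26.1 and 41.4 (0.59, but 0.10 with normexp). The ligand values thus all lay within 2-fold, on either side of 0.

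TNF receptors were measured in 14 of 18 genes, with 6 above 0, 8 below and a median of -0.03. Of the 14, 2 were past 2-fold downwards, beside 2.4% of all genes, and none upwards. Tnfrsf4, the T-cell costimulator OX40, read 121 and 47.4 (chr5:172858982-172859041, rn4), 2.69-fold lower with a difference of -1.43. Tnfrsf17, the plasma-cell receptor BCMA, read 79.3 and 32.8 (chr10:4187731-4187790, rn4), 2.55-fold lower with a difference of -1.35. Both fell short of 2-fold with normexp, at -0.81 and -0.66. Tnfrsf8, an activation marker of lymphocytes, read 59.2 and 34.8 (-0.84), with -0.13 on its dimmer probe. The receptors named here belong to lymphocytes in textbook terms. Markers of T and NK cells had a median of -0.04 over the 5 of 10 measured, from -0.56 to 0.49. Of the others, Gzmb and Prf1 were detected in the control array alone. No B-cell marker was measured on both arrays. The part of such cells was not tested.

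The receptors that TNF itself engages differed less in size. Tnfrsf1a, which carries a death domain, read 987 and 1158 (0.15), and Tnfrsf1b read 124 and 121 (-0.10) on its brightest probe and 0.09 on the other. Tnfrsf12a, the receptor of TWEAK, read 671 and 688 (-0.04). Tnfrsf21, or DR6, a death receptor of neurons and oligodendrocytes, read 3872 ± 137 and 5093 ± 137 (SD, n = 10 spots each). It was higher in 10 of 10 spot pairs by 0.32, with a spot SD of 0.05. Among the TNF-induced proteins 4 of 5 measured members were above 0, with a median of 0.28: Tnfaip8 read 1252 and 1711 (0.37), Tnfaip8l2 645 and 824 (0.28), Tnfaip6 67.3 and 93.8 (0.40) and Tnfaip1 498 and 476 (-0.14).

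Toll-like receptors were measured in 7 of 11 genes, with 5 below 0, 2 above and a median of -0.14. Tlr3, the endosomal receptor for double-stranded RNA, was the only class member past 2-fold, and both of its probes were. The probe at position 3280 of the transcript (chr16:50126271-50126330, rn4) read 323 and 130, and that at position 3054 (chr16:50126045-50126104) read 246 and 123. Their differences were -1.38 and -1.07, and -1.12 and -0.81 with normexp. The surface receptors differed less. Tlr2, which binds bacterial lipoproteins, read 1196 and 1140 (-0.14), and its partner Tlr6 404 and 469 (0.14). Tlr4, the endotoxin receptor, read 59.6 and 58.8 (-0.10). Tlr7 and Tlr5 read 21.4 and 14.4 (-0.65) and 12.6 and 9.12 (-0.55), both within 0.1 of 0 with normexp.

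The NF-kappaB class lay within 2-fold in all 9 genes, with 4 above 0, 5 below and a median of -0.04. The subunit Rela read 1055 and 1080 (-0.04), and its dimmer probe, 14.6 and 7.89, was well above background in the control array alone. Nfkb1 read 465 and 394 (-0.31) and Nfkb2 180 and 208 (0.13). Nfkbia, the inhibitor that both NF-kappaB and glucocorticoids induce, read 909 and 1094 (0.19), a value between 0.17 and 0.21 under every alternative. Nfkbid, a nuclear regulator, read 31 and 17.4 (-0.91, but -0.27 with normexp), Nfkbiz 18.3 and 15 (-0.36), and Nfkbil1 2031 and 1829 (-0.23).

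**Figure D5:**
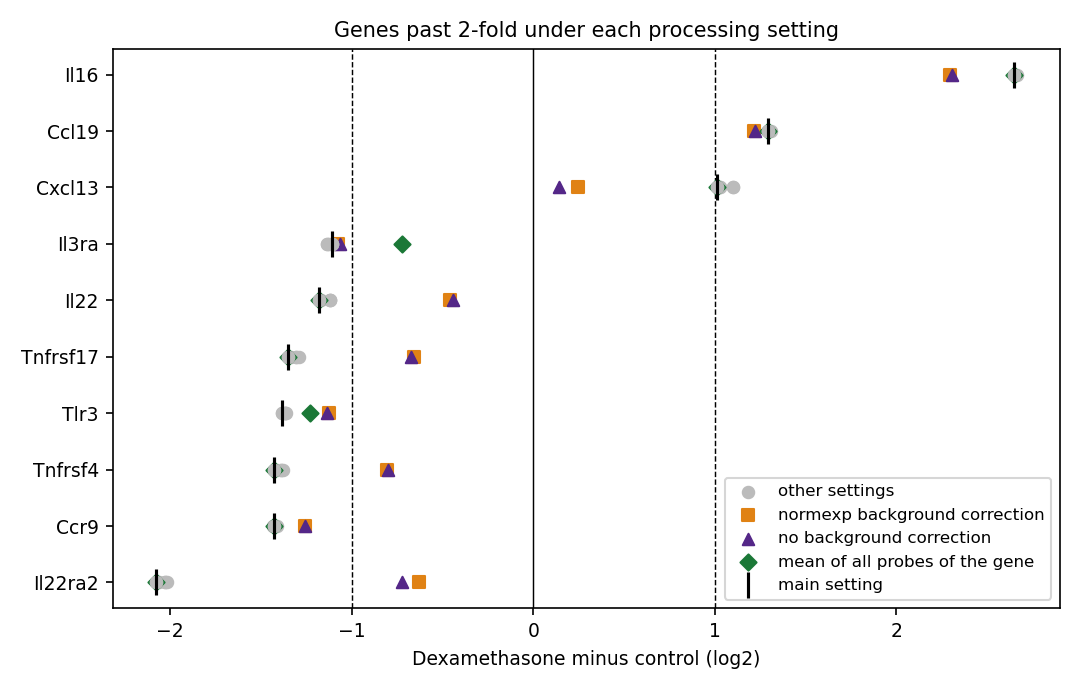
The 10 member genes past 2-fold are shown with x their difference in log2 (dexamethasone minus control) in the main setting (black bar) and under each alternative (symbols). Il16, Ccl19, Ccr9 and Tlr3 stay outside the dashed 2-fold lines under each alternative that measures them. Il3ra crosses with the mean of its probes, and the other 5 with normexp or without background correction.

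Genes that act around these receptors were taken from 4 lists of other names. Of 90 listed genes 67 were measured, 33 above 0 and 34 below, with a median of -0.0118, 3 past 2-fold upwards (3.35% over all genes) and 3 downwards (2.4%). In the main setting the furthest were Ptx3, a pentraxin, at 8.84 and 56.7 (2.60), Clcf1, a gp130 cytokine, at 14.6 and 84.9 (2.46), and Lcn2, an iron-binding acute-phase protein, at 15.4 and 78.1 (2.27). Ikbke, a kinase that acts below these receptors, read 419 and 195 (-1.18), and Chuk, an inhibitor kinase of NF-kappaB, 123 and 62.4 (-1.05). With normexp none of the 67 was past 2-fold: these 5 genes were at 0.55, 0.87, 0.85, -0.99 and -0.65. Birc3 (-1.02), Tbk1 (-0.65) and Traf3 (0.79) were named after their values were seen. Myd88, an adaptor of Toll-like receptors, read 1809 and 1983 (0.06).

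The promoters of the family were searched for a kappaB motif, the sequence that NF-kappaB binds. RefSeq promoters (GRCr8, from 250 bases before to 50 after the start) were given for 142 of the 182 genes. The motif, GGG and TTTCC with any 2 bases between them, or GGAAA and CCC on the other strand, was in 15 of the 142 (10.6%) and in 414 of 27457 promoters of this length (1.51%). No test was made of that difference, and a match is only a match of letters. Of the 15 genes 9 were measured on both arrays, and only Tnfrsf4 was past 2-fold. Cxcl1 and Cxcl2 held 2 matches each, and Il6, Ccl20, Nfkb2, Nfkbia and Nfkbiz were among the others. The 250 bases before the start are shown for a chemokine, an inhibitor and the single gene past 2-fold, with the motif in capitals. Cxcl2 (10.6 and 8.44, -0.41) is at chr14:17467256-17467505 on the minus strand. Nfkbia is at chr6:78597073-78597322 on the minus strand, and Tnfrsf4 at chr5:171888884-171889133 on the plus strand (all GRCr8).
Cxcl2 promoter: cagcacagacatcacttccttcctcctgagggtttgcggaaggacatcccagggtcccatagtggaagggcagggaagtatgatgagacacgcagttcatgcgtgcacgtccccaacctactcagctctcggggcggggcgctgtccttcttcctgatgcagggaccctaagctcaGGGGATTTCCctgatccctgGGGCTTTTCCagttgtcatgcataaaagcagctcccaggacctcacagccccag
Nfkbia promoter: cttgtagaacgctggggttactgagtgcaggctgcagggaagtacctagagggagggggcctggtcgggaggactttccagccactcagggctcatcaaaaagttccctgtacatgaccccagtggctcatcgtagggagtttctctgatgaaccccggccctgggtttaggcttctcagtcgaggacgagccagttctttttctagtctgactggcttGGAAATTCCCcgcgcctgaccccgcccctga
Tnfrsf4 promoter: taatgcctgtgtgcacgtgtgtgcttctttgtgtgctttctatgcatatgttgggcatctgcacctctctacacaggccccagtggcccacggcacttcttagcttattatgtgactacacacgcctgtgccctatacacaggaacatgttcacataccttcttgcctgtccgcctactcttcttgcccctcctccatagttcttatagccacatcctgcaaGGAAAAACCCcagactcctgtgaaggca
In Cxcl2 the matches begin 74 and 54 bases before the start, in Nfkbia 31 and in Tnfrsf4 28 bases before it.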

How the data were processed

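Total RNA was amplified and labelled with Cy3, per the labels' protocols, and hybridised to 1-colour arrays. The deposited values are linear spot intensities, background-subtracted by Feature Extraction 10.7.1.1 per the file headers (9.5.1.1 per the submitters' processing notes), with probe positions on rn4. Spots with an outlier mark were left out (267 in the control, 249 in the dexamethasone array), log2 intensities were averaged per probe, and each array's 75th percentile was subtracted. The arrays shared a slide, where the position of an array cannot be told apart from its group. Member probes kept the gene names of the files. The values of 1 member are not reported here. For the set of all genes, probes were named through RefSeq (GRCr8, names only). The members and lists were chosen with earlier results of these data known. Named genes were those past 2-fold, those with bounds past 2-fold, those with repeated spots, the 3 brightest and 3 most different per class, and a fixed list; others are marked. Alternatives used limma 3.58.1 (normexp offset 50, quantile and cyclic loess normalization). Scripts were tested on simulated data. The number of arrays limits the precision.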

Additional observations from a re-analysis of the deposited data

How the results depend on the processing

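Lower calls outnumbered higher calls among the members under every alternative except among the brighter genes, where they were equal. Main counts were 3 higher and 7 lower of 114 members, beside 478 and 342 of 14257 genes. With normexp they were 2 and 3, beside 283 and 132 of all genes. Without background correction they were 2 and 3, beside 279 and 135. Each of these was among the main calls. Without a filter on dim probes the counts were 11 higher and 14 lower of 182 members, beside 876 and 743 of 17710 genes. Among genes of at least the median level, 28 members, they were 1 and 1, beside 180 and 70 of 7129 genes. A 1.5-fold rule gave 11 higher and 15 lower, beside 7.27% and 7.58% of all genes. The median moved to -0.042 without background correction and 0.16 among brighter genes. The 6 listed pathway genes past 2-fold became 0 with normexp, without background correction and among brighter genes. Quantile and cyclic loess normalization, median scaling and the deposited value table kept all 10 calls, and the mean of probes lost Il3ra. Over named genes and classes, 136 alternative values moved by more than a spot SD and 565 did not. That SD was the one at their signal for genes and the one over all signals (0.041) for class medians. No paired analysis was possible because the groups share fewer than 2 replicate numbers. Signal over background limits the dim members: below a signal of 32 the spot SD alone had a median of 0.269.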

Other observations

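Members of the family that lie side by side on the genome were listed as runs of at least 3 genes (rn4 positions of their probes). The run of Ccl5, Ccl9, Ccl6, Ccl3 and Ccl4 on chromosome 10 was measured in all 5 genes, from -0.78 to 0.15, with a median of -0.11. The run of Cxcl11, Cxcl10 and Cxcl9 on chromosome 14 was measured for Cxcl10 and Cxcl9, at 0.36 and 0.62. Cxcl11 was detected after dexamethasone alone (6.15 and 10.8). With normexp Cxcl11, Cxcl10 and Cxcl9 differed by 0.03, 0.23 and 0.06. In the run of Il11ra1, Ccl27, Ccl19 and Ccl21 on chromosome 5 the 3 measured genes stood at 0.35, -0.045 and 1.29. In the run of Il1r2, Il1r1, Il1rl2, Il1rl1, Il18r1 and Il18rap on chromosome 9, Il1r2 alone was measured on both arrays (0.80), and Il1r1 and Il18r1 were detected in the control array alone. None of the Il4, Il13 and Il5 run was measured on both arrays.

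The Ccr7 ligands and their receptor all read higher in the dexamethasone array: Ccl19 at 438 and 1131, Ccl21 at 3.57 and 9 and Ccr7 at 6.48 and 21.4. With normexp their differences were 1.22, 0.04 and 0.26. Ptgs2, an inducible cyclooxygenase, was likewise detected after dexamethasone alone, at 5.7 and 66. The Il1rap probes that begin 1 base apart (positions 1794 and 1795 of the transcript) read 11.7 and 11.4, and 7.47 and 4.95. Only the former was well above background on both arrays. These items were chosen after their values were seen.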
